A study of Mus musculus with 2 samples.

Results

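Purkinje cells are the inhibitory output neurons of the cerebellar cortex, and they settle into parasagittal stripes that differ in gene expression before birth. Ebf2, a helix-loop-helix transcription factor, marks some of these stripes and is low in the others. The nuclei described here are Purkinje nuclei with low Ebf2. They were chosen by 4 measured genes: a nucleus needed 4 or more unique molecular identifiers (UMIs) of Calb1, Skor2 and Car8 together and at most 1 UMI of Ebf2, besides 1000 or more genes detected and a mitochondrial share of at most 5%. Of 10033 nuclei that passed the last 2 limits, 484 were members, and the barcodes of the series numbered 11803. Another 693 nuclei met the Purkinje limit with 2 or more Ebf2 UMIs and are called Ebf2-high nuclei here. The member set held 137 nuclei of the control library and 347 of the library labelled cKO.

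The series is single-nucleus RNA sequencing of the mouse cerebellum at postnatal day 1. There were 2 libraries, 1 for each genotype, and each was made from 12 pooled cerebella. Control mice carried a floxed Tox3 allele and no Cre, with the genotype given as Tox3f/f in one label and as Tox3f/f or Tox3f/+ in the library name. The cKO mice were Nestin-cre;Tox3f/f, in which Cre acts in neural precursors and so not in Purkinje cells alone. TOX3 is a nuclear protein with an HMG box. With 1 library for each genotype there was no replicate, so nothing below is a test of genotype. Values are given for both libraries with 95% intervals that cover counting error only, nuclei vary more than counts do, and a pool, its preparation and its genotype cannot be told apart.

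Depth and composition differed between the libraries in ways that touch what follows. Members had a median of 9091 UMIs in control and 7806 in cKO, and their summed UMIs came to 1334863 and 2914415. An Xist UMI was found in 56.2% of control members and 72.6% of cKO members, so the libraries were not matched in Xist detection. Members with both Xist and a Y-linked UMI made up 11.7% and 11.5%. They stay in the Xist group wherever members are split below, so an Xist UMI does not by itself make a nucleus female. In all, 9 barcodes occurred in both libraries.

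The members carried the markers that were given for them. Car8, a carbonic anhydrase-related protein of Purkinje cells, was detected in 98.5% of control and 100% of cKO members and Calb1, the calcium buffer calbindin, in 73.0% and 76.9%, both of which the rule used. Foxp2, a forkhead factor of Purkinje cells that the rule did not use, was detected in 98.5% (94.8 to 99.8) of control members and in 94.5% (91.6 to 96.7) of cKO members, against 19.5% and 18.9% of nuclei selected as microglia, which had median depths of 4102 and 3302 UMIs. Bcl11a, a zinc finger repressor, was detected in 97.8% and 94.2% of members and in 13.0% and 10.9% of those microglial nuclei. Bcl11a is a given marker. Ebf2-high nuclei carried Foxp2 in 99.5% of control and 98.6% of cKO nuclei and Bcl11a in 94.7% and 92.9%. Neither gene therefore speaks to the low-Ebf2 part of the label. By Foxp2, the Purkinje part of the label held for nearly all members. The exceptions were 7 control and 24 cKO members with at most 1 Foxp2 UMI. These carried the oligodendrocyte list at 702 CPM, counts scaled to 1000000 UMIs, in control and 911 in cKO, against 50.6 and 53.1 in the other members, and 2 and 10 of them had a UMI of Pdgfra or Sox10. Leaving them out is given as an alternative below.

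The Ebf2 limit cut through a continuous tail, as the plot of Ebf2 counts shows. Ebf2 was at 0 UMIs in 111 control and 264 cKO members and at 1 UMI in 26 and 83. Just outside the limit, 21 control and 45 cKO nuclei had 2 UMIs. Epha5, one of the given markers, stood at 1490 CPM in control nuclei with 1 Ebf2 UMI and 2150 CPM in those with 2, and in cKO nuclei at 2135 and 1584. At the Purkinje limit, 10 control and 14 cKO members had a sum of 4 and a Foxp2 level of 1760 and 621 CPM, whereas 16 and 39 nuclei with a sum of 3 had 782 and 460 CPM.

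**Figure D1:**
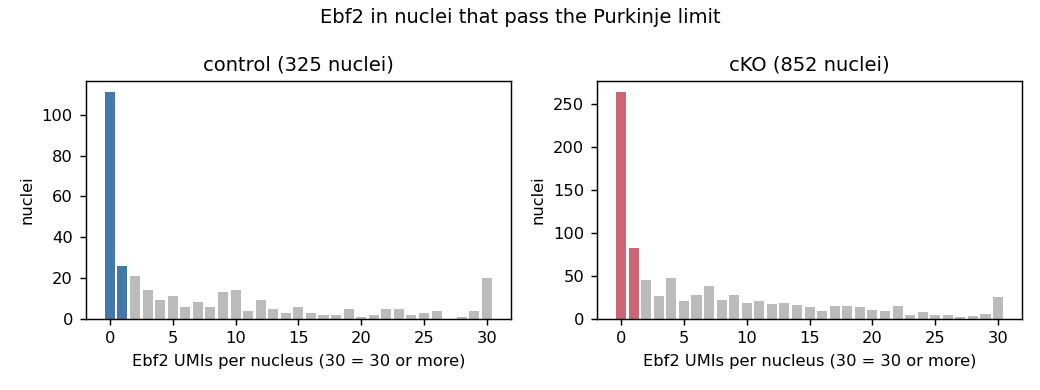
Nuclei (y axis) by their number of Ebf2 UMIs (x axis) among the 325 control and 852 cKO nuclei that passed the Purkinje limit. Coloured bars are the members with 0 or 1 UMI, which number 111 and 26 in control and 264 and 83 in cKO, and grey bars are the Ebf2-high nuclei.

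Members formed 42.2% (36.7 to 47.7) of Purkinje nuclei in control and 40.7% (37.4 to 44.1) in cKO, a ratio of 0.966 (0.791 to 1.19). The split of Purkinje nuclei by Ebf2 thus differed by less than counting error. Against all nuclei kept, members made up 3.59% (3.02 to 4.23) of control and 5.58% (5.02 to 6.18) of cKO nuclei, a ratio of 1.55 (1.27 to 1.91). Purkinje nuclei as a whole were 8.52% and 13.7% of nuclei kept, a ratio of 1.61 (1.41 to 1.83). Outside nuclei with granule lineage markers the members' share was 5.33% and 6.71%, a ratio of 1.26 (1.00 to 1.59). That limit removed members too, unequally, leaving 103 of 137 in control and 303 of 347 in cKO. The ratio of 1.26 therefore depends partly on which members were lost. A share of nuclei depends on every other cell type in the pool, and a change in the number of Purkinje cells cannot be told apart from it. The depth sets the Ebf2 split too: with each nucleus thinned to 3000 UMIs, on average 58.7% of control and 54.5% of cKO Purkinje nuclei had at most 1 Ebf2 UMI.

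Tox3, the targeted gene, was not lower in the library labelled cKO. Members held 93 Tox3 UMIs in control and 347 in cKO, or 69.7 and 119 CPM, a ratio of 1.71 (1.36 to 2.17). In Ebf2-high nuclei the levels were 154 and 152 CPM, a ratio of 0.991 (0.868 to 1.13). Counts per gene do not show whether the floxed part of the gene was read, so Tox3 does not check the label, and the directions below follow the labels. Outside the Purkinje sets the granule cell progenitor list stood at 897 CPM in control and 473 in cKO, with its gene Gli2 at a ratio of 0.431. The Tox3 ratio was 2.15 (1.57 to 3.01) among members with an Xist UMI and 1.16 (0.790 to 1.73) among those without Xist but with a Y-linked UMI. Against Ebf2-high nuclei, Tox3 was 2.21-fold (1.75 to 2.81) lower in members of the control library and 1.28-fold (1.12 to 1.46) lower in those of cKO. Of the other TOX genes, Tox2 and Tox4 had ratios of 0.785 (0.285 to 2.35) and 0.889 (0.682 to 1.17) between the libraries.

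What set members apart from Ebf2-high Purkinje nuclei was described within each library, which holds genotype and preparation constant. The Ebf2 count chose both sets, so these differences are given with no test. Of 5726 genes with 100 or more UMIs in each library, 152 (2.65%) were at least 1.5-fold higher in members in both libraries and 141 (2.46%) at least 1.5-fold lower in both.

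Members stood high in receptors and adhesion molecules that steer axons. Epha5, a receptor for the repellent ephrin-A ligands, was at 1999 CPM in control members against 709 in Ebf2-high nuclei, a ratio of 2.82 (2.64 to 3.00), and at 2240 against 829 CPM in cKO, a ratio of 2.70 (2.60 to 2.81). Pcdh10, a delta-protocadherin, was at 515 against 107 CPM in control, a ratio of 4.80 (4.12 to 5.60), and at 537 against 161 CPM in cKO, a ratio of 3.33 (3.05 to 3.64). Both are known from striped Purkinje expression. Cntn3, an immunoglobulin superfamily contactin, was 4.38-fold (3.55 to 5.44) and 4.93-fold (4.12 to 5.92) higher. The highest ratios by rank belonged to Gpr176, an orphan G protein-coupled receptor, at 6.13 (3.84 to 10.2) in control and 8.26 (5.63 to 12.5) in cKO.

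The other given markers followed. Trpc4, a calcium-permeable cation channel, was 2.65-fold (2.26 to 3.12) and 2.33-fold (2.09 to 2.59) higher in members, and Bcl11a 1.83-fold (1.69 to 1.99) and 1.61-fold (1.53 to 1.70). Transcription factor genes were among the leaders as well. Cux2, a cut-homeobox factor, was 4.07-fold (3.20 to 5.21) higher in control and 6.81-fold (5.66 to 8.23) in cKO, and Tfap2a, an AP-2 factor, 4.60-fold (3.44 to 6.23) and 3.67-fold (2.96 to 4.57). The heparan sulfate endosulfatases split: Sulf2 was 4.44-fold (2.92 to 6.93) and 3.89-fold (2.93 to 5.21) higher in members, whereas Sulf1 was 18.5-fold (12.0 to 30.1) and 8.15-fold (6.53 to 10.3) lower. Both enzymes trim sulfate groups from extracellular heparan sulfate.

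Other genes stood low in members. Plcb4, a phospholipase C isoform known from zebrin-negative Purkinje stripes in the adult, was at 357 CPM in control members and 1436 in Ebf2-high nuclei, which is 4.03-fold (3.66 to 4.45) lower, and at 437 and 1616 CPM in cKO, which is 3.70-fold (3.49 to 3.93) lower. Plcb1, a related isoform, had ratios of 0.349 and 0.358, and Plcb3, with 14 and 30 UMIs in members, was too low to compare. Brinp1, a neural retinoic acid-inducible gene, was 6.20-fold (5.16 to 7.51) and 6.16-fold (5.52 to 6.90) lower in members, Pcdh7, another delta-protocadherin, 4.39-fold (4.03 to 4.79) and 3.15-fold (3.00 to 3.31), and Gpc5, a glypican, 3.79-fold (2.91 to 5.0) and 4.08-fold (3.45 to 4.84). The ranking used the weaker of the libraries, so genes named by rank share a direction in both by selection.

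Several leading genes shared a locus. 3 of the lowest were transcripts antisense to Ebf2 (chromosome 14, 67233292 to 67430918, plus strand, GRCm38), namely 4930438E09Rik with 27.0-fold and 24.2-fold lower levels, 1700120O09Rik with 34.8-fold and 21.1-fold, and Gm6878 with 21.7-fold and 23.9-fold. The rule counted Ebf2 UMIs only, but these transcripts lie on the minus strand inside the Ebf2 gene. Their low levels are therefore not treated as independent of the rule. Gm26688 overlaps Tfap2a, 4930587E11Rik overlaps Cntn3 and Gm20713 overlaps Gpc5, each on the opposite strand, and Gm21798 lies antisense to Adcy8, an adenylyl cyclase. The sources used here do not state how counting treated strand, so these transcripts are not counted as separate evidence. The remaining named transcripts, Gm6209, Gm47352, Gm49678 and F730043M19Rik, are non-coding and overlap no protein-coding gene of the annotation. Gm6209 was the most restricted of these, at 105 and 68.3 CPM in members and 1.93 and 1.71 CPM in nuclei outside both Purkinje sets.

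**Figure D2:**
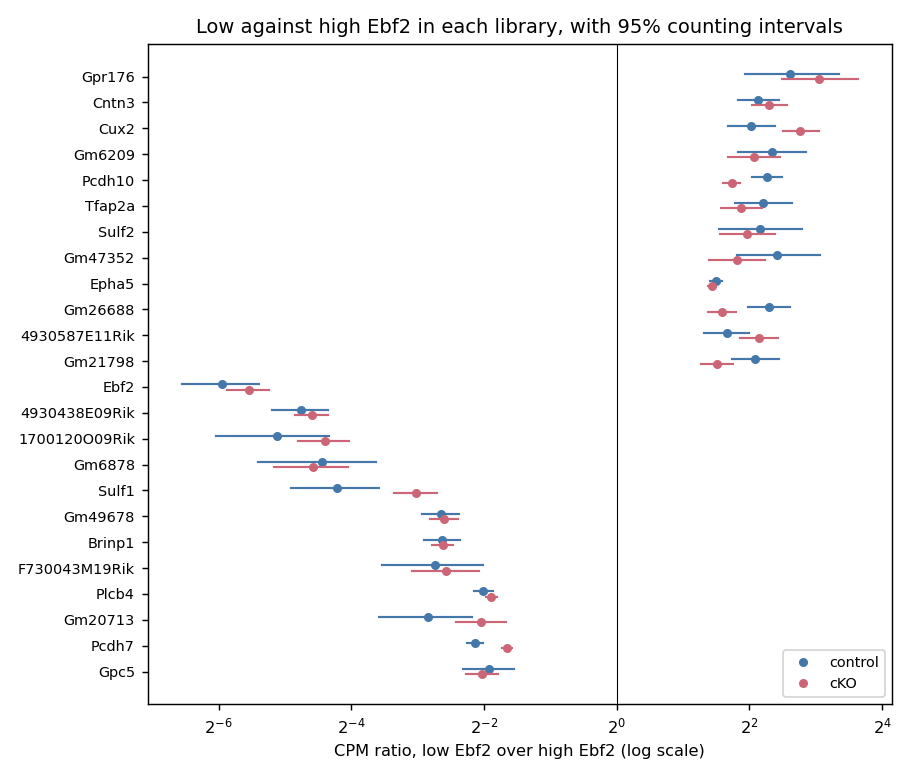
CPM ratio of members over Ebf2-high nuclei (x axis, log scale) for the genes ranked highest and lowest, in control (blue) and cKO (red); bars are 95% counting intervals. Every gene lies on the same side of 1 in both libraries, which the ranking by the weaker library sets. Ebf2 and its 3 antisense transcripts lie farthest to the left.

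Lists of related genes are described next. They were chosen with earlier results of these data known and hold genes already named, so their counts are descriptions and not added support. The 9 guidance genes that follow include Epha5, a given marker. Of 27 axon guidance genes compared, 9 were at least 1.5-fold higher in members in both libraries and 3 lower, beside 2.65% and 2.46% of all genes, and the list's median log2 ratio was 0.37 in control and 0.29 in cKO against -0.01 and 0.03 over all genes. Among those higher were the ephrin receptors Epha3 (2.11 and 1.62), Epha7 (2.49 and 1.90) and Ephb2 (1.70 and 1.69), the semaphorin co-receptor Nrp1 (3.64 and 2.70) and its partner Plxna4 (1.71 and 1.77). Robo2, a receptor for Slit repellents, was lower in members with ratios of 0.456 and 0.438, and so were Sema3a, a secreted repellent, at 0.315 and 0.211, and Epha4 at 0.591 and 0.661. Of the other Eph receptors of the list, Epha6 (0.667 and 0.714), Epha8 (1.39 and 1.21) and Ephb1 (1.29 and 1.2) did not pass the fold in both libraries.

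Of 39 adhesion genes, 11 were higher in members and 4 lower, with medians of 0.18 and 0.20. The 11 include Pcdh10 and Cntn3 and the 4 include Pcdh7, all named above by rank. The counts here and in the lists that follow stand beside the same 2.65% higher and 2.46% lower over all genes, and a count of 1 or 2 genes is not read as a result about a list. The classical cadherins parted: Cdh10 (2.58 and 2.06) and Cdh11 (2.38 and 2.92) were higher, Cdh9 (0.373 and 0.220) lower. The contactins Cntn4 (1.57 and 1.83) and Cntn6 (1.80 and 2.12) went with Cntn3. Among 17 glutamate receptor genes, 3 were higher in both libraries and none lower, led by the AMPA receptor subunit Gria1 (1.88 and 1.89) and the kainate receptor subunit Grik1 (2.31 and 1.89), whereas none of 17 GABA genes passed the fold in both. Of 38 ion channel genes, 3 were higher and 2 lower. In the Purkinje subtype list 5 of 14 genes were higher and 2 lower. Besides Pcdh10 and the orphan nuclear receptor Rorb (2.64 and 2.46), those higher were the given markers Bcl11a, Epha5 and Trpc4. These markers were named beforehand, so that count is not read as a result about the list. Epha5 is also in the guidance list and Trpc4 in the ion channel list. Of 5 genes known from zebrin bands 1 was higher, the glutamate transporter Slc1a6 (2.39 and 1.96), and 2 lower, Plcb1 and Plcb4. Among 14 genes of Purkinje identity, 1 was higher, Rora (1.77 and 1.54), and 1 lower, and of 10 secreted and trophic genes Ntrk3, the receptor of neurotrophin-3, was higher (1.97 and 1.58) and Igf1, insulin-like growth factor 1, lower (0.252 and 0.179). Of the 12 genes compared of the reelin response, through which Purkinje cells settle into their layer, none passed the fold in both libraries.

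**Figure D3:**
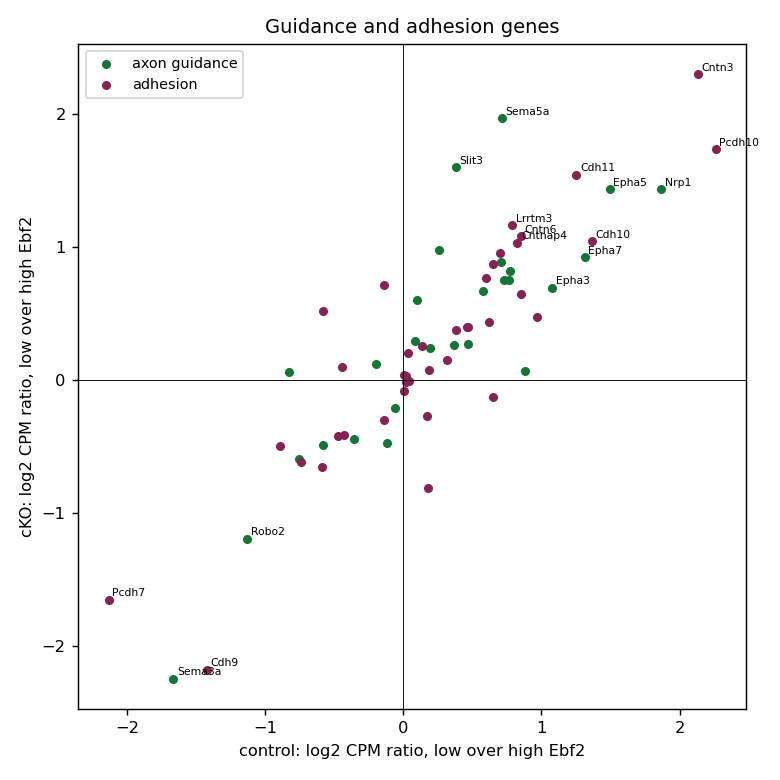
Log2 CPM ratio of members over Ebf2-high nuclei in control (x axis) and cKO (y axis) for the axon guidance genes (green) and adhesion genes (purple) compared; genes past a log2 ratio of 1 in size in either library are named. Epha5, Nrp1, Pcdh10 and Cntn3 lie to the upper right and Sema3a, Cdh9 and Pcdh7 to the lower left.

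The comparison of the libraries within members asked which genes differed between cKO and control. Of 6526 genes with 100 or more UMIs over both, 161 (2.47%) were at least 1.5-fold higher in cKO and 122 (1.87%) at least 1.5-fold lower, with a median log2 ratio of 0.01. The subtype markers were close to level. Bcl11a had a ratio of 1.06 (0.993 to 1.14), Trpc4 of 0.942 (0.836 to 1.06) and Epha5 of 1.12 (1.07 to 1.17). No gene of the 15 compared in the subtype list passed 1.5-fold either way.

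Rora, the nuclear receptor on which Purkinje dendrite growth and survival depend, was lower in the library labelled cKO. Control members held it at 9178 CPM and cKO members at 5238 CPM, which is 1.75-fold (1.71 to 1.79) lower. Per nucleus the control values ran from 3.38 to 285 UMIs per 10000 with a median of 90.7, and the cKO values from 0 to 223 with a median of 45.6. The ranges overlapped widely, but 49.6% (41.0 to 58.3) of control members and 16.7% (12.9 to 21.1) of cKO members exceeded 90.7. Microglial nuclei, which should lack it, had a median of 0 in both libraries. Even so, 49.4% of them in control and 44.6% in cKO held a Rora UMI, at 622 and 710 CPM. The cKO over control ratio of Rora was 0.573 (0.556 to 0.590) in members with an Xist UMI and 0.538 (0.515 to 0.561) in those without Xist but with a Y-linked UMI, so the ratio was as far from 1 within either group.

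Rora was the 1 gene of 15 compared in the Purkinje identity list past 1.5-fold, and the list's median log2 ratio was -0.03. Foxp2 had a ratio of 0.903 (0.867 to 0.941), Itpr1, the inositol trisphosphate receptor, of 0.857 (0.818 to 0.898) and Dab1, the reelin adaptor, of 1.10 (1.07 to 1.13). Rora was lower in Ebf2-high cKO nuclei too, from 5174 to 3407 CPM, a ratio of 0.659 (0.643 to 0.675). Outside the Purkinje sets it was higher in cKO, from 917 to 1132 CPM, a ratio of 1.24 (1.21 to 1.26). Members were the Purkinje set with the higher level in both libraries, and the members' ratio over the ratio in Ebf2-high nuclei was 0.867 (0.837 to 0.897).

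Fgf1, a fibroblast growth factor, had the lowest ratio of the genes named. It fell from 249 CPM, or 332 UMIs in 64 of 137 nuclei, to 43.2 CPM, or 126 UMIs in 47 of 347 nuclei, which is 5.75-fold (4.67 to 7.12) lower. With each nucleus thinned to 3000 UMIs, which left out 1 control and 5 cKO members, 36.0% (28.0 to 44.7) of control and 7.31% (4.79 to 10.6) of cKO members kept a UMI. In microglial nuclei the thinned shares were 18.5% and 14.0%, so the cKO share lay no higher than what free RNA gives and is not read as expression. In Ebf2-high nuclei Fgf1 went from 105 to 30.5 CPM, a ratio of 0.291 (0.234 to 0.361), while outside the Purkinje sets it was level at 218 and 222 CPM.

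The non-coding gene 9630014M24Rik, which ends 49.6 kb from Fgf1 on chromosome 18, moved in the same way. It was at 97.4 CPM in control and 17.8 CPM in cKO members, 5.46-fold (3.93 to 7.68) lower, and had a ratio of 0.251 (0.174 to 0.357) in Ebf2-high nuclei and 0.997 (0.939 to 1.06) outside. Shc3, a neuronal adaptor of receptor tyrosine kinases, was also lower in both Purkinje sets, with ratios of 0.411 (0.309 to 0.546) in members and 0.325 (0.237 to 0.444) in Ebf2-high nuclei against 1.08 (1.02 to 1.16) outside. These genes and Rora share a direction in Purkinje nuclei that the other nuclei did not have.

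Another set was lower in cKO members with little or no shift in Ebf2-high nuclei. Cdh18, a classical type II cadherin, was at 2298 CPM in control and 1093 CPM in cKO members, 2.10-fold (2.0 to 2.21) lower. Per nucleus its values ran from 0 to 110 UMIs per 10000 with a median of 13.1 in control and from 0 to 76.4 with a median of 5.92 in cKO. In Ebf2-high nuclei it stood at 2034 and 1916 CPM, a ratio of 0.942 (0.908 to 0.977), so that the ratio of the 2 ratios was 0.505 (0.475 to 0.537). Olfm3, an olfactomedin, had a ratio of 0.290 (0.216 to 0.389) in members and 0.942 (0.700 to 1.28) in Ebf2-high nuclei, but 5 nuclei held 48.0% of its control UMIs. Cdh12, another type II cadherin, had ratios of 0.595 (0.548 to 0.648) and 1.02 (0.944 to 1.10). No replicate exists by which these differences between the Purkinje sets could be tested.

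**Figure D4:**
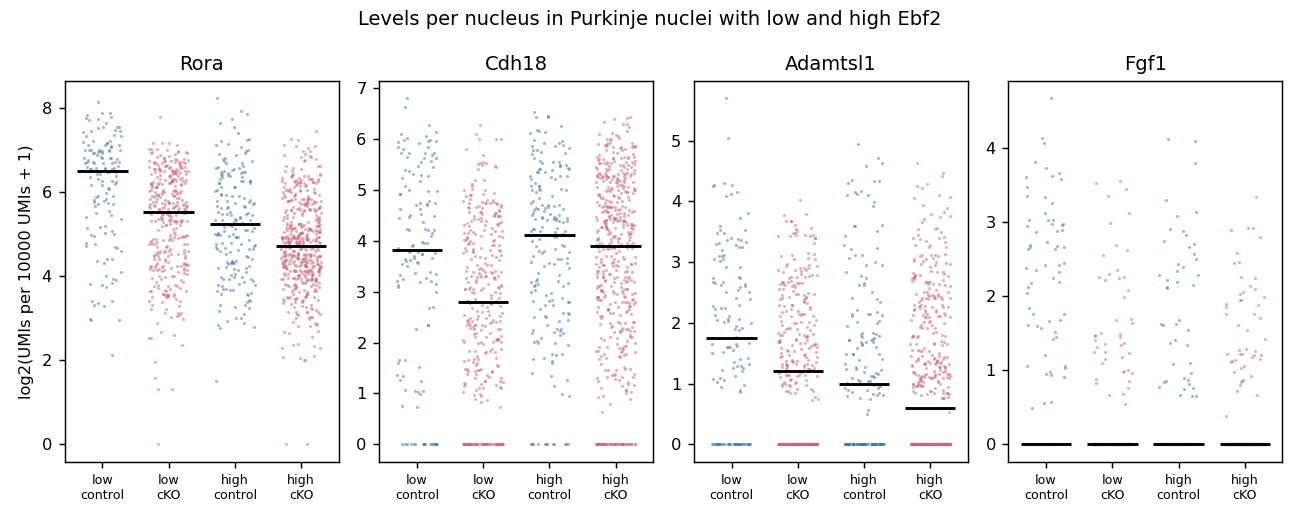
Level per nucleus, as log2 of UMIs per 10000 plus 1 (y axis), of Rora, Cdh18, Adamtsl1 and Fgf1 in Purkinje nuclei with low Ebf2 (the members) and high Ebf2; each point is a nucleus, with control in blue and cKO in red, and black lines are medians. Rora is lower in cKO in both sets, Cdh18 mainly in the low set.

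The promoters of 4 genes that the results turn on are shown so that their sequences can be read beside the values. They are the 250 bases before the RefSeq start on GRCm38.p6, in lower case, with any match to AGGTCA, the half-site bound by RORA, or to the EBF motif, TCCC and GGGA parted by any 2 bases, in capitals on either strand. Rora, which was lower in cKO, was read from chr9:68653536-68653785 on the plus strand, and Cdh18 from chr15:23036213-23036462 on the plus strand. Epha5, which was higher in members, was read from chr5:84417383-84417632 on the minus strand. Plcb4, which was lower in members, was read from chr2:135659297-135659546 on the plus strand, and RefSeq listed 2 starts for it. The Cdh18 and Plcb4 windows lie inside the GENCODE genes.
Rora: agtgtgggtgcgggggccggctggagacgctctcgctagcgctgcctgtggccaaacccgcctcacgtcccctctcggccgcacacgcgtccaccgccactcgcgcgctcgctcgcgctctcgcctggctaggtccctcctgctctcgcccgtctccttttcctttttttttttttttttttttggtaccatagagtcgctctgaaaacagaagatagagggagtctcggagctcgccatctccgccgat
Cdh18: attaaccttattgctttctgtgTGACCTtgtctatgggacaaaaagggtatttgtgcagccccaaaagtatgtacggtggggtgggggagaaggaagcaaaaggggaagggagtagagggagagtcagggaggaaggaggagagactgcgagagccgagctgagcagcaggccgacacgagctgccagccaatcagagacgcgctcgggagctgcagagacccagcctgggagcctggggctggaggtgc
Epha5: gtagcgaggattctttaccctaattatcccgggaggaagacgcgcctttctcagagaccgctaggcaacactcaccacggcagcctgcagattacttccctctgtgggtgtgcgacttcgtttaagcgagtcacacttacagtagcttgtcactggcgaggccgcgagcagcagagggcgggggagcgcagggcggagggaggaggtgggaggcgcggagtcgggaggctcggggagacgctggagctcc
Plcb4: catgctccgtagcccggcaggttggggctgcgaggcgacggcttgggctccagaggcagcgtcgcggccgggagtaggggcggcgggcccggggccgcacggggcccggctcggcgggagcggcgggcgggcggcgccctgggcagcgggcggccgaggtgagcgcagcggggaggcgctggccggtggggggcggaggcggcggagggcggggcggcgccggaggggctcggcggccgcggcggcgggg

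Cdh18 held 1 half-site, written as TGACCT on the strand shown, and the other windows held neither motif. Of 32851 promoter windows of the same length, 14.0% held the half-site and 0.779% the EBF motif. A match in these letters is a description, not a binding site.

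Hgf, hepatocyte growth factor, was found in few members, 17 in control and 22 in cKO, at 47.9 and 14.8 CPM, a ratio of 0.308 (0.204 to 0.460). It was nearly absent from Ebf2-high nuclei at 1.89 and 0.218 CPM and from other nuclei at 0.716 and 0.932 CPM. The 5 members with the most Hgf held 56.25% of its UMIs in control and 46.5% in cKO. Adamtsl1, a secreted ADAMTS-like glycoprotein, was 1.98-fold (1.77 to 2.21) lower in cKO, from 462 to 234 CPM, and had a ratio of 0.717 (0.647 to 0.795) in Ebf2-high nuclei. Car10, a carbonic anhydrase-related neurexin ligand, was 2.05-fold (1.76 to 2.40) lower and Syt13, an atypical synaptotagmin, 2.54-fold (1.74 to 3.71). In Ebf2-high nuclei Car10 had a ratio of 0.596 (0.512 to 0.694). Outside the Purkinje sets Car10 and Adamtsl1 had ratios of 1.30 (1.26 to 1.34) and 1.11 (1.06 to 1.16), so both went with Fgf1 and Rora in direction. Trhde, an ectopeptidase that cleaves thyrotropin-releasing hormone, was 2.49-fold (1.89 to 3.28) lower, along with 4930473D10Rik on its opposite strand, and both were lower outside the Purkinje sets as well, at 0.681 and 0.611. In control, 5 members held 55.7% of the Trhde UMIs and 62.3% of those of 4930473D10Rik. For those 2 genes, the part that RNA from other nuclei plays was not tested.

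Other lists described between the libraries moved little, and their counts stand beside the 2.47% higher and 1.87% lower over all genes, so that counts of 1 or 2 are not read as results about a list. Of 39 adhesion genes, 2 were lower, Cdh12 and Cdh18, and 1 higher, Pcdh7 at 1.52 (1.38 to 1.67). Among 27 axon guidance genes, Sema6a at 0.623 (0.536 to 0.723) and Nrp1 at 0.638 (0.503 to 0.812) were lower and none was higher. Of 18 glutamate receptor genes, Grin3a, an NMDA receptor subunit, was lower at 0.653 (0.581 to 0.733). The GABA list of 18 had the receptor subunits Gabrb1 at 1.88 (1.41 to 2.53) and Gabrg3 at 1.84 (1.34 to 2.57) higher and Gabbr2, of the metabotropic receptor, lower at 0.587 (0.522 to 0.661), and the 39 ion channel genes had Kcnh5 higher at 1.80 (1.15 to 2.91). Of 13 reelin response genes, Reln itself, which granule cells secrete, was lower at 0.597 (0.505 to 0.706) and was also lower outside the Purkinje sets at 0.680, while the receptor genes Vldlr and Lrp8 had ratios of 1.16 (0.963 to 1.39) and 0.976 (0.772 to 1.24). In the Y-linked group Pcdh7 stood at 0.823, Kcnh5 at 0.970 and Reln at 1.23, on the other side of 1, and Gabrb1 did so at 0.670 without the nuclei with glial markers. The medians of these lists lay between -0.07 and 0.08. None of the 10 secreted and trophic genes passed the fold, with a median of -0.25, nor did the 4 stress genes compared, and the immediate early genes were too low to compare.

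Genes higher in cKO members were led by genes of other cell classes. The first was 8030451A03Rik, a non-coding gene antisense to Tnc, with 22 UMIs in control and 432 in cKO, a ratio of 8.99 (5.86 to 14.5), followed by Tnc itself, the glial matrix protein tenascin-C, at 4.69 (2.96 to 7.85). Apoe, the lipid carrier apolipoprotein E, had a ratio of 3.24 (2.36 to 4.53), Slc1a3, the glial glutamate transporter, of 2.79 (2.07 to 3.83), Ednrb, an endothelin receptor of glia, of 4.02 (2.26 to 7.77), and Sparcl1, a matrix protein of astrocytes, of 2.54 (1.76 to 3.75). These counts sat in few nuclei. The 5 nuclei with the most held 55.1% of the 8030451A03Rik UMIs of cKO members, 53.2% of those of Tnc and 33.8% of those of Slc1a3.

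The Bergmann glia and astrocyte list moved with them. Of its 10 genes, 5 were compared and 3 were higher, its summed level was 323 CPM in control and 552 in cKO members, and all 10 genes had a UMI in both libraries. In nuclei outside the Purkinje sets the list stood at 1402 and 1994 CPM. Members with 4 or more UMIs of the list were 26.3% of control and 25.9% of cKO members. Without the nuclei that had 4 or more UMIs of this or of the oligodendrocyte list, 8030451A03Rik had a ratio of 0.582 and Slc1a3 of 0.835. Slc1a3 and Tnc belong to the list that chose the nuclei removed, and 8030451A03Rik lies antisense to Tnc. Those ratios were therefore partly set by the removal and are descriptions. Without the nuclei of highest doublet score Tnc had 0.925, Slc1a3 0.863, Pax3 0.879 and Sparcl1 0.958. Rora and the other 11 of the 12 lowest genes stayed below 1 under each of these removals.

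The rest of the 12 highest were Cyp26b1, which degrades retinoic acid, at 3.91 (2.36 to 6.89), the non-coding Sox2ot at 2.93 (2.28 to 3.81), Gm45025, which lies antisense to Sox6, at 3.30 (1.88 to 6.26), the neurexin ligand gene Nxph1 of cerebellar interneurons at 2.21 (1.88 to 2.60), the paired box gene Pax3 at 3.00 (1.87 to 5.07) and Ints6l. Ints6l, a paralog of an Integrator subunit on the X chromosome, had UMIs in 21 control and 110 cKO members, with 13.6% of the cKO UMIs in the 5 highest nuclei, and a ratio of 2.97 (1.94 to 4.72). It was 2.98 (1.74 to 5.48) in members with an Xist UMI and 2.64 (1.27 to 5.99) in those of the Y-linked group, and 0.880 (0.695 to 1.12) in Ebf2-high nuclei. Members held Ints6l at 18.7 CPM in control and 55.6 in cKO, below the 62.6 and 68.8 CPM of nuclei outside the Purkinje sets. Microglial nuclei held it at 260 and 327 CPM, and droplets under 500 genes at 41.9 and 53.2 CPM. For Ints6l the part that RNA from other nuclei plays was not tested. Pax3, Sox2ot and Nxph1 had ratios of 0.988 (0.417 to 2.40), 0.840 (0.558 to 1.26) and 1.05 (0.792 to 1.39) in the Y-linked group, whereas members with an Xist UMI had 4.72, 6.38 and 2.94.

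Other classes were less marked. The interneuron list stood at 372 CPM in control and 576 in cKO, with Nxph1 and Kit among 4 genes compared past 1.5-fold, Kit at 0.705 without the nuclei of highest doublet score. The granule cell progenitor list stood at 293 and 215 CPM and the granule neuron list at 1788 and 1562 CPM, with Gli2 and Pax6 lower at 0.659 (0.493 to 0.885) and 0.655 (0.480 to 0.898) and ratios of 0.431 and 0.646 outside the Purkinje sets. Microglial genes came to 206 and 223 CPM and haemoglobin and other erythroid genes to 102 and 96.4 CPM. Endothelial genes came to 21.7 and 23.0 CPM, with 5 of 8 at 0 UMIs in control and 1 of 8 in cKO, fibroblast and mural genes to 7.49 and 14.1 CPM, unipolar brush cell genes to 101 and 98.8 CPM, glutamatergic nuclear neuron genes to 15.0 and 20.6 CPM and GABAergic progenitor genes to 6.74 and 11.7 CPM. The oligodendrocyte list stood at 74.9 and 95.4 CPM and the cell cycle list at 178 and 168 CPM.

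Over all 6526 genes, 54 were at least 1.5-fold higher in cKO in Ebf2-high nuclei and 168 at least 1.5-fold lower. Of the 161 genes higher in cKO members, 7 were at least 1.5-fold higher in Ebf2-high nuclei and 6 at least 1.5-fold lower, with a median log2 ratio there of 0.04. Of the 122 lower, 29 were at least 1.5-fold lower in Ebf2-high nuclei and none higher, with a median of -0.24, whereas the median over all genes was -0.02.

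**Figure D5:**
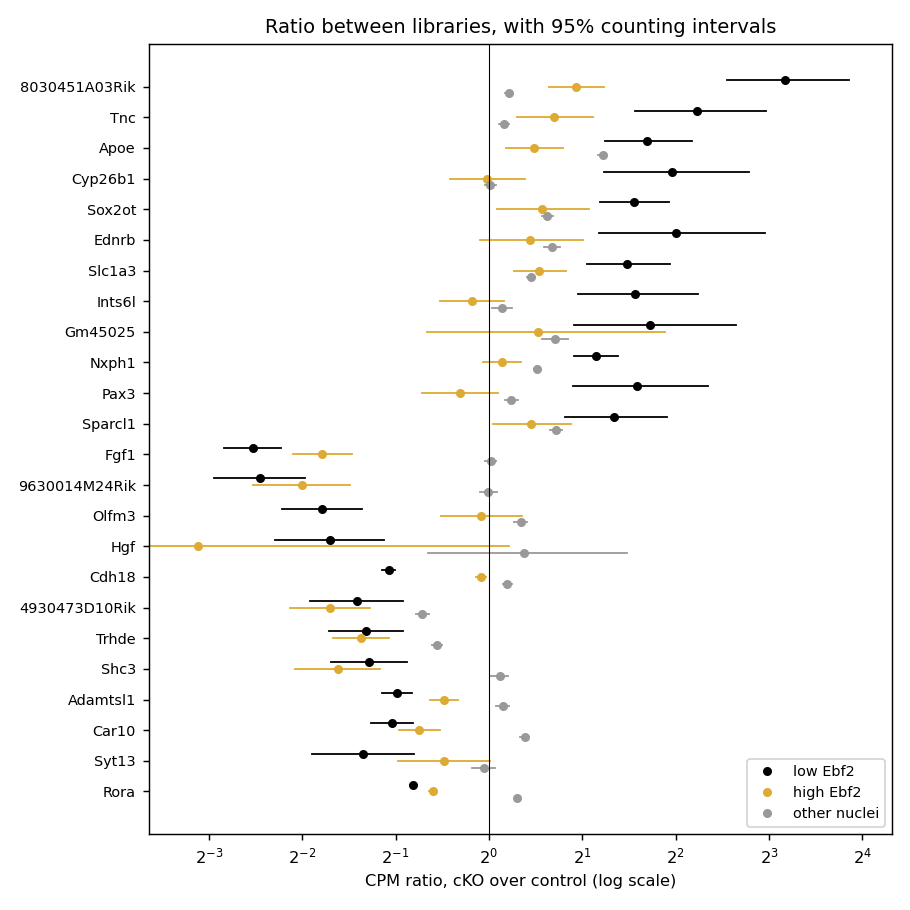
CPM ratio of cKO over control (x axis, log scale) for the 12 highest and 12 lowest genes in members (black), in Ebf2-high nuclei (yellow) and in all other nuclei (grey); bars are 95% counting intervals. Fgf1, 9630014M24Rik, Shc3, Rora, Car10 and Adamtsl1 lie left of 1 in both Purkinje sets but close to or right of 1 in other nuclei. Cdh18 and Olfm3 lie far left in members only.

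The level of Rora across members was set beside those of Fgf1 and Cdh18, both lower in cKO, and of Ntrk3, whose cKO over control ratio of 0.722 (0.681 to 0.765) did not pass the fold. The pairs were chosen after their levels were seen. Across the 137 control members the correlation of log2 levels with Fgf1 was 0.443 (Spearman 0.509), with Cdh18 0.511 (0.489) and with Ntrk3 0.551 (0.587). Across the 347 cKO members the same values were -0.03 (-0.01), 0.119 (0.123) and 0.311 (0.302). Nuclei of 1 library share its pool and free RNA and differ in depth, and Fgf1 is sparse in cKO, so these are descriptions. Rora and Plcb4 went in opposite directions in both libraries, at -0.33 and -0.57.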

How the data were processed

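The authors deposited 1 raw count matrix per library (UMI counts per gene and barcode; unit counts, not normalized), made with Cell Ranger 7.0.1 on mm10 according to the submitters' processing notes. The ambient-RNA, doublet and integration steps of the study's methods are not in these deposited matrices and were not repeated. Nuclei with 1000 or more genes and at most 5% mt- counts were kept, and UMIs were summed over members in each library, scaled to CPM, and compared as ratios with exact conditional binomial 95% intervals; shares have Clopper-Pearson intervals, ratios of ratios log-normal ones. They cover counting error only. There is 1 library per group, so no test was made, and "called" means 1.5-fold or more with 100 or more UMIs. Named genes were, per direction, the 12 whose interval bound lay nearest to the extreme (for members against Ebf2-high nuclei, by the weaker library), leaving out mt-, Xist, Tsix and Y-linked genes, with the rule genes, the given markers, the TOX family and gene lists, of which the text gives counts, medians and members past 1.5-fold. The members and lists were chosen with earlier results of these data known. Microglial nuclei were those outside the Purkinje sets with 6 or more UMIs of Csf1r, C1qa, C1qb, C1qc, P2ry12 and Cx3cr1. No doublet was removed in the main values; as an alternative, the barcodes with the highest scanpy 1.11.5 Scrublet scores were removed, at 0.8% per 1000 barcodes. Coordinates and overlaps come from GENCODE M21, promoters from RefSeq (GRCm38.p6). Interval code was tested on simulated data. Python, numpy and scipy were used. Values of some list genes are not reported here.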

Additional observations from a re-analysis of the deposited data

Results flagged for a closer look

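Tox, the founding gene of the TOX family, was drawn out because the libraries differed in opposite directions in the Purkinje sets. Its cKO over control ratio was 1.53 (1.07 to 2.24) in members, on 40 control and 134 cKO UMIs, and 0.604 (0.453 to 0.808) in Ebf2-high nuclei. The ratio in members was 1.09 (0.695 to 1.74) with Foxp2 at 2 or more UMIs, 2.07 (1.28 to 3.52) with an Xist UMI, 0.737 (0.372 to 1.46) without Xist but with a Y-linked UMI and 0.970 without nuclei with glial markers, so it was below 1 under 2 of these and within counting error of 1 with the Foxp2 limit. In control members 5 nuclei held 57.5% of the Tox UMIs. With 1 library per genotype the difference was not tested.

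Pcdh7 differed in direction between the groups of members split by Xist and Y-linked UMIs, which are not sexes. Its ratio was 1.95 in members with an Xist UMI and 0.823 in members without Xist but with a Y-linked UMI, and this difference was not tested either.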

How the results depend on the processing

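The libraries hold no replicates, and no value here carries more than counting error. No paired analysis was possible because each group has 1 library. The share of members among Purkinje nuclei moved by less than its interval under every alternative run. The ratio of the share of all nuclei was 1.26 outside the granule lineage, a limit that also removed members. The Tox3 ratio was 1.16 in nuclei without Xist but with a Y-linked UMI, 1.26 after thinning to 3000 UMIs and 2.31 after free RNA was subtracted. The genes higher and lower in cKO members, 161 and 122 of 6526 compared in the main values, are given with the number compared. They were 71 and 69 of 2469 in the Y-linked nuclei and 87 and 54 of 2900 after thinning. With a minimum of 50 UMIs they were 455 and 336 of 9355, and with 200 UMIs 46 and 44 of 3945. Of the same 6526 genes, 31 and 15 passed a fold of 2, and 952 and 870 passed 1.5-fold after free RNA was subtracted. The free share set from the markers was 39.1% in control and 40.9% in cKO. It rests on 206 and 197 marker UMIs in the droplets under 500 genes. Without nuclei with glial markers, an alternative chosen after seeing the data, 100 of 4895 genes compared were higher. The genes higher in members than in Ebf2-high nuclei numbered 88 in the Y-linked nuclei, 58 after thinning, 94 with a minimum of 200 UMIs and 51 at a fold of 2, and those lower 69 after thinning and 69 at a fold of 2. With fewer nuclei or UMIs fewer genes reach the minimum, so these counts are not read against the main ones. Removing every nucleus with 4 or more UMIs of another class list left 7 control and 23 cKO members, since the granule neuron list alone marked 90.5% and 88.8%. The share ratio was then 2.02 and the Tox3 ratio 2.35. The counts in cKO members were 27 and 15 of only 204 genes compared, and those against Ebf2-high nuclei 0 and 4, with no test and no adjusted value in any of them.

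Ratios that crossed 1 were, without the highest doublet scores, Tnc 0.925, Slc1a3 0.863, Pax3 0.879, Sparcl1 0.958, Kit 0.705 and the glial list's median log2 at -0.059. Without nuclei with glial markers they were 8030451A03Rik 0.582, Slc1a3 0.835, Gabrb1 0.670 and Tox 0.970, in the Y-linked nuclei Sox2ot 0.840, Pax3 0.988, Pcdh7 0.823, Kcnh5 0.970, Reln 1.23 and Tox 0.737, after thinning Pax3 0.983, and after free RNA was subtracted Gabrb1, which was left at 0 in cKO. In the 7 and 23 members without other markers they were Apoe 0.880, Sox2ot 0.587, Slc1a3 0.587, Nxph1 0.720, Sparcl1 0.0978, Pcdh7 0.461, Kit 0.587, Car10 2.35 and Gabbr2 1.54, and against Ebf2-high nuclei Cntn3 0.581, Tfap2a 0.471, Sulf2 0.419, Epha3 0.516, Epha7 0.942, Nrp1 0.733, Sema3a 1.88 and Ntrk3 0.426 in cKO and Cux2 0.944, Gm47352 0.177, Epha7 0.910, Plxna4 0.841, Cdh10 0.885, Cdh11 0.644, Cntn4 0.560 and Slc1a6 0.708 in control. The cause was not tested. Slc1a3, Tnc and Apoe belong to a list used to remove nuclei with glial or other markers, so their ratios there were partly set by the removal. Apart from Car10 there, the 12 genes ranked lowest in cKO stayed below 1 under every alternative run that gave them a value. With Foxp2 at 2 UMIs or more, also chosen after seeing the data, 130 control and 323 cKO members remained, and of 6299 genes compared 149 were higher and 136 lower.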

Other observations

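Members were not uniform among themselves. Of 12 gene pairs computed across members, Pcdh10 and Cdh9, a type II cadherin, rose and fell together, with a correlation of log2 levels of 0.423 over 137 control and 0.522 over 347 cKO nuclei, although against Ebf2-high nuclei Pcdh10 was higher in members and Cdh9 lower. Brinp3 and Cdh12 had 0.593 and 0.468, Fgf1 and its neighbour 9630014M24Rik 0.583 and 0.414, and Epha5 and Plcb4 -0.38 and -0.39. The pairs were chosen after their levels were seen, nuclei of a library share its free RNA and differ in depth, and the values are descriptions.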
